A study of Mus musculus with 6 samples.

Results

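Transcripts of fatty acid synthesis, elongation and desaturation were examined in terminally exhausted CD8+ T cells from mouse melanomas. An interleukin-10 fusion protein (IL-10/Fc) or buffer had been injected beside the tumours. The genes were selected by name, as the enzymes that lead from citrate to long and unsaturated acyl chains, after the higher level of Elovl6 under IL-10/Fc had been seen in these same libraries. The values that led to the selection are therefore those of Elovl6 in the IL-10/Fc to PBS contrast, and the members' values in that contrast are given as a description. Where calls of fits across all genes are counted for the members, they are no independent evidence. Of the 10 genes (Acly, Acaca, Fasn, Scd1, Scd2, Elovl1, Elovl5, Elovl6, Elovl7 and Fads2), 8 were among the 15898 genes of the count table. Scd1 and Fads2 were not analysed here. All 8 passed the filter on low counts, which kept 15477 genes.

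PMEL T cells recognise gp100, an antigen of pigment cells, through the transgenic receptor Tg(TcraTcrb)8Rest/J, here on the B6.Cg-Thy1a/Cy strain. C57BL/6 hosts irradiated with 4 Gy were given 2000000 naive Thy1.1+ PMEL cells and then B16F10 melanoma cells, a mouse line that carries the antigen. Both groups were also given 5000000 activated Thy1.2+ PMEL cells on day 10 of tumour growth, together with the first of 4 injections beside the tumour, of PBS in 1 group and of 20 µg IL-10/Fc in the other. On day 18, Thy1.1+ CD8+ cells bearing PD-1 and TIM-3, surface proteins that mark terminal exhaustion together, were sorted into libraries of 500 cells, which gave 2 PBS and 4 IL-10/Fc libraries. The irradiation was sublethal, so host cells remained in the animals, and the second transferred population was present in both groups. Libraries held 26738871 to 36941814 counts. CPM here are counts scaled to the library total and by edgeR's TMM factors. All 12 markers of CD8+ T cells and of the gate were listed. Their summed level was 8883 and 12960 CPM in PBS and 15550 to 17840 CPM in IL-10/Fc.

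Fatty acid synthesis starts in the cytosol with ATP-citrate lyase (Acly), which splits citrate into acetyl-CoA and oxaloacetate. Acetyl-CoA carboxylase 1 (Acaca) then makes malonyl-CoA, and fatty acid synthase (Fasn) uses it to build palmitate. Membrane enzymes of the endoplasmic reticulum lengthen and desaturate the product: ELOVL6 elongates palmitate towards stearate, ELOVL1 and ELOVL7 act on saturated and very long chains, ELOVL5 acts on polyunsaturated chains, and stearoyl-CoA desaturases such as Scd2 introduce the first double bond. T cells raise this synthesis when they grow and divide, and the SREBP transcription factors are its best known regulators.

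Elovl6 lies on chromosome 3 (129532355 to 129638495 in GRCm38, plus strand). It was counted at 87 and 83 reads in PBS replicates 1 and 2 and at 579, 518, 425 and 846 reads in IL-10/Fc replicates 1 to 4. Scaled by edgeR's TMM factors, these are 2.96 and 2.71 CPM in PBS and 19.4, 18.1, 15.3 and 24.1 CPM in IL-10/Fc. The groups did not overlap: the lowest IL-10/Fc library held 5.18 times the level of the highest PBS library. The exact 95% binomial intervals, which cover counting error only, ran up to 3.65 CPM in PBS replicate 1 and down to 13.9 CPM in IL-10/Fc replicate 3. Group means were 2.83 ± 0.172 CPM (SD, n = 2) for PBS against 19.2 ± 3.68 CPM (SD, n = 4) for IL-10/Fc. The fitted log2 fold change was 2.76 (SE 0.29), a fold of 6.78. In libraries of pooled cells, more transcript per cell and more cells that carry the transcript cannot be told apart.

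**Figure D1:**
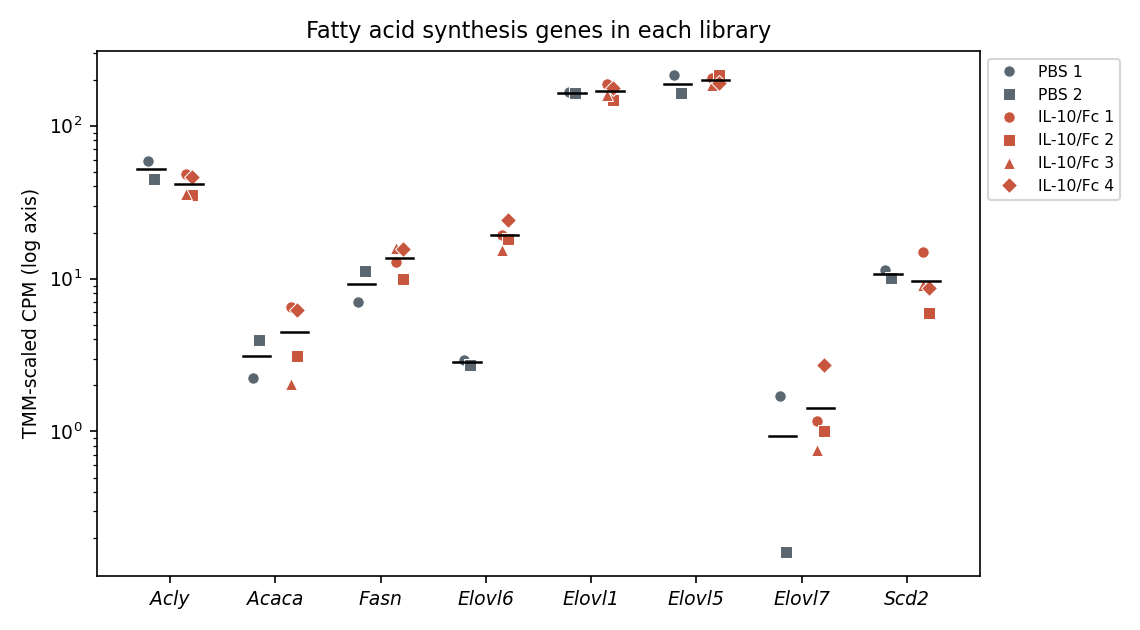
TMM-scaled CPM (log axis) of the 8 listed genes in each of the 2 PBS and 4 IL-10/Fc libraries, with a bar at each group mean. The Elovl6 libraries lie at 2.71 to 2.96 CPM in PBS and at 15.3 to 24.1 CPM in IL-10/Fc, while the groups of the other 7 genes overlap.

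None of the other 7 genes showed such a separation. Elovl6 was the 1 member of 8 whose groups did not overlap, where 23.6% of all genes tested had groups that did not overlap (12.1% with IL-10/Fc higher). The edgeR quasi-likelihood test, after Benjamini-Hochberg adjustment over all genes, called 0 of the 8 members, against 0.00646% of all genes (the 1 gene Ifi27, higher under IL-10/Fc). At an unadjusted p under 0.05 edgeR had 1 of 8, Elovl6, against 12.7% of all genes. The DESeq2 Wald test called 1 of 8, against 4.88% of all genes, and the authors' deposited table called 1 of 8, against 5.30% (3.57% as higher). In each case that gene was Elovl6, with a log2 fold change of 2.76 in the authors' deposited table. A log2 fold change of 2.5 or more was reached by 1 of 8, Elovl6, against 3.26% of all genes. Nothing is read from these counts, since Elovl6 was selected on this contrast. The median log2 fold change of the 8 members was 0.30, with 6 above 0 (4 with scaling by library size only), and that of all genes tested was -0.01, with 49.3% above 0.

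The windows from 250 bases before to 50 bases after the start of transcription are printed for 3 members that behaved differently: Elovl6, with separate groups, Fasn, with a smaller difference in the same direction, and Elovl5, at nearly equal levels. They are RefSeq sequences of GRCm38.p6, read 5′ to 3′ on the strand of the gene, at chr3:129532136-129532435 (plus strand) for Elovl6, chr11:120824498-120824797 (minus strand) for Fasn and chr9:77917115-77917414 (plus strand) for Elovl5. Capitals mark matches, on either strand, to 5 motifs: the SREBP motif TCACNCCAC, the E-box CACGTG, the STAT motif TTCNNNGAA, the CCAAT box CCAAT and the GC box GGGCGG. STAT factors include STAT3, the main transducer of IL-10 receptor signals.
Elovl6: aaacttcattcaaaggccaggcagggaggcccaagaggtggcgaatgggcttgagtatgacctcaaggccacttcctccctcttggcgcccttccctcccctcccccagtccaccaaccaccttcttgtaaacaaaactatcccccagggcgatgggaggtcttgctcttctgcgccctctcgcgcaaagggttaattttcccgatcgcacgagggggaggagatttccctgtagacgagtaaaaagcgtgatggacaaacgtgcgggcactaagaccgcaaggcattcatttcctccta
Fasn: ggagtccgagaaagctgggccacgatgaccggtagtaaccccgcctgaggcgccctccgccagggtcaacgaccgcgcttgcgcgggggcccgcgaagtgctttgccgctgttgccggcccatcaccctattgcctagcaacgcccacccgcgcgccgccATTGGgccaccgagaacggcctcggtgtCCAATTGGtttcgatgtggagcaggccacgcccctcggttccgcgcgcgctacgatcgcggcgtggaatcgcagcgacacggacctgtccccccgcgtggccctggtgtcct
Elovl5: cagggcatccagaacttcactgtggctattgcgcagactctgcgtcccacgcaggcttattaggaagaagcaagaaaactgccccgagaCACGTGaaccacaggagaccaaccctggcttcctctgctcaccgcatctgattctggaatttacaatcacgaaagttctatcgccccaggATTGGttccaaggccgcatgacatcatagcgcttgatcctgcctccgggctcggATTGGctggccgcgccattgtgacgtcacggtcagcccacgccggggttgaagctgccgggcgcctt

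The Elovl6 window held none of the 5 motifs, the Fasn window held 3 matches to the CCAAT box, 2 of them overlapping on opposite strands, and the Elovl5 window held 1 E-box and 2 CCAAT boxes. Of the 10 genes, 8 had a window (7 of the listed 8, all but Scd2), in 9 windows in all, and none of these held the SREBP or the STAT motif. Over all 32851 windows of the table, 1.24% held the SREBP motif, 7.15% the E-box, 8.30% the STAT motif, 37.4% the CCAAT box and 35.7% the GC box. A window without a match says only that these letters are absent from it. The GC content was 55.7% for Elovl6, 69.3% for Fasn and 57.7% for Elovl5, with a median of 52.7% over all windows.

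The 3 enzymes that make palmitate differed in direction. Acly (chromosome 11, 100476353 to 100528000) stood at 58.9 and 44.9 CPM in PBS and at 48.6, 35.4, 35.5 and 46.0 CPM in IL-10/Fc. The means were 51.9 ± 9.93 CPM (SD, n = 2) against 41.4 ± 6.94 CPM (SD, n = 4). Its log2 fold change was -0.33 (SE 0.21). Acly thus lay on average lower under IL-10/Fc, with IL-10/Fc replicates 1 and 4 above PBS replicate 2.

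Acaca (chromosome 11, 84129672 to 84401651), the carboxylase that commits acetyl-CoA to synthesis, stood at 2.24 and 3.99 CPM in PBS and at 6.54, 3.10, 2.05 and 6.21 CPM in IL-10/Fc. IL-10/Fc replicates 1 and 4 lay above both PBS libraries and replicate 3 below both, so that the log2 fold change of 0.52 had an SE of 0.60. Fasn (chromosome 11, 120805846 to 120824547) stood at 7.07 and 11.2 CPM in PBS and at 12.8, 9.94, 15.9 and 15.7 CPM in IL-10/Fc. Only IL-10/Fc replicate 2 lay below the higher PBS library. Its means were 9.15 ± 2.95 CPM (SD, n = 2) and 13.6 ± 2.79 CPM (SD, n = 4), with a log2 fold change of 0.57 (SE 0.32). Without PBS replicate 2 the log2 fold change of Fasn was 0.94, and without PBS replicate 1 it was 0.27.

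The other elongases did not follow Elovl6. Elovl1 (chromosome 4, 118428093 to 118432953) stood at 164.7 and 163.9 CPM in PBS and at 187.2, 146.5, 159.8 and 176.9 CPM in IL-10/Fc. Its log2 fold change was 0.03 (SE 0.12), and -0.14 with scaling by library size only. Elovl5 (chromosome 9, 77917364 to 77984519) stood at 212.9 and 163.3 CPM in PBS and at 203.5, 215.6, 185.2 and 190.9 CPM in IL-10/Fc. Its log2 fold change was 0.08 (SE 0.14), and -0.10 with scaling by library size only. Both PBS values of Elovl1 lay within the IL-10/Fc range, as did PBS replicate 1 for Elovl5, while PBS replicate 2 lay below all 4 IL-10/Fc values of Elovl5. Exons of Elovl1 share 53 bases with the opposite-strand mitotic gene Cdc20, at 151 to 922 counts per library, and exons of Elovl6 share 34 bases with an antisense gene, Gm35986, that is not in the table. The protocol does not mark strand, so reads in these stretches cannot be assigned to either gene.

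Elovl7 (chromosome 13, 108214404 to 108287105) was the member with the fewest reads. It had 50 and 5 counts in PBS and 35, 29, 21 and 96 counts in IL-10/Fc, or 1.70 and 0.163 CPM against 1.17, 1.01, 0.757 and 2.74 CPM. The PBS libraries lay on both sides of 3 of the 4 IL-10/Fc values. The log2 fold change of 0.61 (SE 1.04) was 3.09 without PBS replicate 1 and -0.26 without PBS replicate 2.

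Scd2 (chromosome 19, 44293676 to 44306864), the desaturase of the set that was listed, stood at 11.4 and 10.1 CPM in PBS and at 14.8, 5.97, 9.11 and 8.67 CPM in IL-10/Fc. IL-10/Fc replicate 1 lay above both PBS libraries and replicates 2, 3 and 4 below both, with a log2 fold change of -0.15 (SE 0.38). The Scd genes resemble each other in sequence, and no source used here says how reads shared between them were counted, so this level is uncertain.

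**Figure D2:**
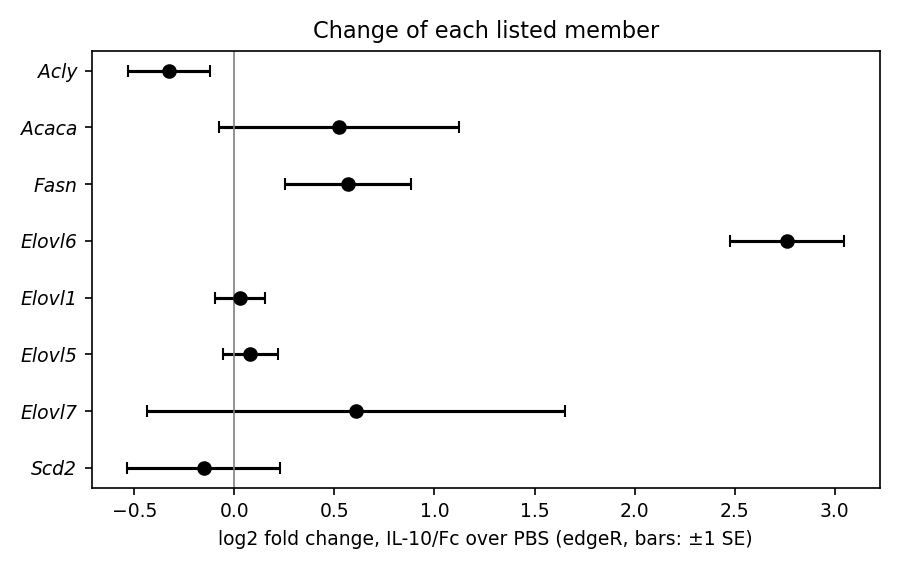
Log2 fold change of IL-10/Fc over PBS for each listed gene, with bars of ±1 SE from edgeR's fit across all genes, in the order synthesis, elongation, desaturation. Elovl6 lies at 2.76, and the other 7 genes lie between -0.33 (Acly) and 0.61 (Elovl7).

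Levels of different genes were compared as CPM per kilobase of exon, with exons from GENCODE M21 on the same build. In PBS the order from the highest mean was Elovl1, Elovl5, Acly, Scd2, Fasn, Elovl6, Elovl7 and Acaca. Elovl1 and Elovl5 overlapped at the top, at 60.3 ± 0.227 and 53.4 ± 9.97 CPM per kilobase (SD, n = 2). At the bottom, Elovl7 overlapped with Elovl6 above it and with Acaca below it, while Elovl6, at 0.441 ± 0.0267 CPM per kilobase (SD, n = 2), lay above both PBS values of Acaca. In IL-10/Fc Elovl6 took the fourth place, at 2.99 ± 0.572 CPM per kilobase (SD, n = 4), below Acly at 7.84 ± 1.32. It overlapped with Scd2 at 1.76 ± 0.681, which in turn overlapped with Fasn at 1.24 ± 0.255 CPM per kilobase. Acaca was lowest by mean in both groups, at 0.182 ± 0.0723 CPM per kilobase under PBS (SD, n = 2) against 0.262 ± 0.131 under IL-10/Fc (SD, n = 4), and overlapped with Elovl7.

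Ratios of genes within a library do not depend on how libraries are scaled. Elovl6 was selected on this contrast, so its higher shares and ratios restate its own difference and are no separate evidence. Elovl4, listed but not a member, was left out of the shares. It had 37 and 296 counts in PBS and 15, 95, 2 and 65 counts in IL-10/Fc. Elovl6 took 0.773% and 0.822% of the counts on the 4 elongases among the members in the PBS libraries. In the IL-10/Fc libraries Elovl6 took 4.72%, 4.74%, 4.24% and 6.11%. Counted per kilobase of exon, its share was 0.377% and 0.394% under PBS, against 2.33%, 2.38%, 2.09% and 3.04% under IL-10/Fc. In all 6 libraries Elovl1 and Elovl5 made up most of the elongase transcripts, and Elovl6 a small part. Per kilobase, Elovl1 took 52.9% ± 4.66 (SD, n = 2) under PBS against 50.6% ± 3.44 (SD, n = 4) under IL-10/Fc, and Elovl5 took 46.5% ± 4.45 and 46.6% ± 3.63.

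The ratio of Elovl6 to Fasn, the enzyme that makes its substrate, in counts per kilobase, was 0.712 and 0.411 under PBS, against 2.57, 3.09, 1.64 and 2.62 under IL-10/Fc. The order of these 2 genes was thus turned: Fasn was above Elovl6 in both PBS libraries and below it in all 4 IL-10/Fc libraries. The ratio of Elovl6 to Acly was 0.0412 and 0.0496 under PBS, against 0.328 to 0.430 under IL-10/Fc. Relative to Scd2 it was 0.221 and 0.228 under PBS, against 1.11, 2.57, 1.43 and 2.36 under IL-10/Fc, and this ratio also turned from below 1 to above 1. The ratio of Fasn to Acly was 0.0578 and 0.121 under PBS, against 0.127, 0.136, 0.215 and 0.164 under IL-10/Fc, so these groups did not overlap either, though the lowest IL-10/Fc value lay close to the higher PBS value. The sum over the 8 genes was 461.9 and 400.2 CPM in PBS and 423.6 to 494.0 CPM in IL-10/Fc, and without Elovl6 458.9 and 397.5 CPM against 408.3 to 474.6 CPM.

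**Figure D3:**
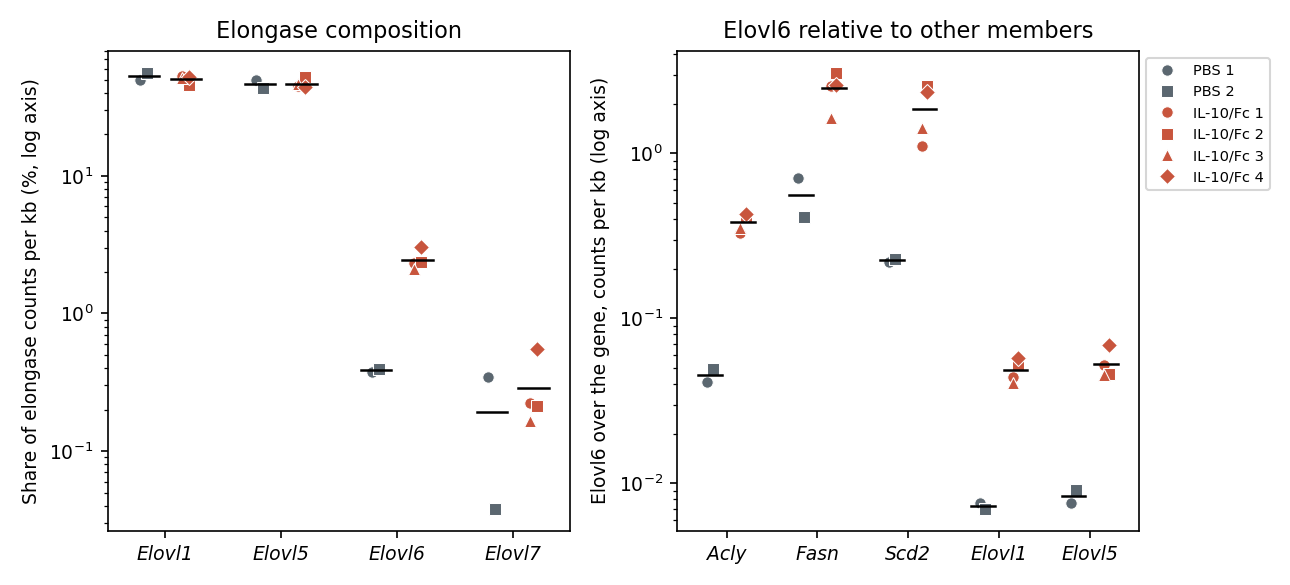
Left, share of each elongase in the counts per kilobase on the 4 elongases among the members (percent, log axis). Right, ratio of Elovl6 to 5 other members in counts per kilobase (log axis). Each panel has 1 point per library and a bar at each group mean. The share of Elovl6 is 0.377% and 0.394% under PBS, against 2.09% to 3.04% under IL-10/Fc, and all 5 ratios are higher in the 4 IL-10/Fc libraries than in both PBS libraries. Both restate the difference of Elovl6, on which it was selected.

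Over the 6 libraries, Pearson's correlation of log2 CPM with Elovl6 was 0.67 for Fasn, 0.48 for Elovl7, 0.42 for Acaca, 0.33 for Elovl5, 0.17 for Elovl1, -0.25 for Scd2 and -0.51 for Acly. These values describe 6 libraries in 2 groups, and a gene that differs between the groups in the same direction correlates with Elovl6. Among 5452 genes with a mean of at least 20 CPM, the 5 most like Elovl6 by this measure were the GTPase gene Nras (0.997), the respiratory complex I gene Ndufa5 (0.996), Gm12396 (0.995), the inflammasome adaptor gene Pycard (0.993) and the proton pump subunit gene Atp6v0c (0.990). Their differences were smaller: under PBS and IL-10/Fc in turn, Nras averaged 139.2 ± 2.16 (SD, n = 2) and 189.5 ± 7.05 CPM (SD, n = 4), and Pycard 78.2 ± 3.53 and 128.9 ± 5.62 CPM.

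Markers of other cells were set beside the Elovl6 values. All 14 macrophage and monocyte markers were listed, 12 with a log2 fold change above 0, and Mrc1 was at 0 in both PBS libraries. They summed to 289.3 and 433.4 CPM in PBS and to 166.5, 391.9, 671.8 and 762.7 CPM in IL-10/Fc replicates 1 to 4. IL-10/Fc replicate 1 had the lowest sum of all 6 libraries and held 19.4 CPM of Elovl6, between replicates 2 and 4. Lyz2 made up much of several sums, at 301.4 of the 433.4 CPM in PBS replicate 2. Of the 14 markers, 4 (Cd68, Mrc1, Itgam and Ms4a7) were higher in all 4 IL-10/Fc libraries than in both PBS libraries, replicate 1 included. Of all genes tested, 12.1% were higher in this way. In that replicate Cd68 stood at 60.5 CPM against 47.3 and 38.7 CPM in PBS, and Ms4a7 at 8.04 CPM against 0.510 and 2.58 CPM. For dendritic cells, 7 of 10 markers (with MHC class II) were listed. They summed to 227.8 and 310.3 CPM in PBS and to 172.1 to 1915 CPM in IL-10/Fc, again lowest in IL-10/Fc replicate 1. Of these 7, 5 had a log2 fold change above 0 and 2 below. Zbtb46 was lower without overlap, at 61.0 and 23.3 CPM against 4.76 to 21.7 CPM, and Xcr1 had a log2 fold change of -0.16. The 5 listed of 7 natural killer cell markers summed to 109.5 and 76.3 CPM under PBS, against 116.0, 211.4, 518.6 and 418.0 CPM under IL-10/Fc. Within that list Fcer1g, which myeloid cells also express, and Klra8 were higher without overlap, while Klrb1c and Eomes had log2 fold changes of -4.26 and -0.80. The 3 listed of 6 neutrophil markers summed to 1.80 and 1.31 CPM under PBS, against 2.88 to 6.73 CPM under IL-10/Fc. Sums of the 2 listed of 6 B cell markers were lower, at 42.5 and 42.8 CPM under PBS against 3.92 to 15.5 CPM under IL-10/Fc. Within that list Ighm was lower and Cd79b higher, each without overlap. The sum of the 2 listed of 8 fibroblast and endothelial markers was also lower, at 20.4 and 16.6 CPM against 6.59 to 9.87 CPM. Of these 2, only 1 passed the filter on low counts, and 1 was at or under 3 counts in both PBS libraries. The 5 listed of 8 melanoma markers summed to 0.645 and 7.84 CPM against 4.76 to 9.04 CPM. Of the 12 CD8+ T cell and gate markers, 7 were higher without overlap, against 12.1% of all genes tested. Pdcd1, which encodes the PD-1 of the gate, was lower without overlap, at 1578 and 1286 CPM against 699.5 to 1112 CPM. The part of other cells, or of the sorted cells' own state, in the Elovl6 level was not tested. None of 6 adipocyte markers and none of 5 red blood cell markers was listed. Of the 20 DNA replication and mitosis genes, 4 had a log2 fold change above 0 and 16 below, with a median of -0.27. Without overlap 0 were higher and 7 lower, against 12.1% and 11.5% of all genes tested. The 20 genes summed to 2657 and 2664 CPM in PBS and to 1639, 1933, 2793 and 2220 CPM in IL-10/Fc. Replicate 3 had the highest of these sums and the lowest Elovl6 level of the IL-10/Fc group, 15.3 CPM, and a part of proliferation in the Elovl6 level was not tested.

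The steps around the members were followed in 13 lists of 158 genes, of which 131 were listed and tested. Of the 131, 0 passed edgeR's test adjusted over all genes, with a smallest adjusted p of 0.153. At an unadjusted p under 0.05 there were 23, 9 higher and 14 lower, against 12.7% of all genes. Limma-voom called 0, and DESeq2 called 6, 3 higher and 3 lower, against 4.88% of all genes. The authors' deposited table called 3 higher (Cyb5r1, Dgat1 and Pqlc3) and 5 lower (Cyb5r3, Hacd3, Mboat7, Sqle and Tkt), against 5.30% of all genes. Groups did not overlap for 9 genes with IL-10/Fc higher and 26 with IL-10/Fc lower, against 12.1% and 11.5% of all genes tested. The median log2 fold change of the 131 genes was -0.08, with 55 above 0 and 76 below. In 4 genes (Pparg, Hacd1, Dgat2 and Fabp4) each PBS library was at or under 3 counts. Setting them to their level over a floor of 3 counts left each above its list median, so the list medians could not move.

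**Figure D4:**
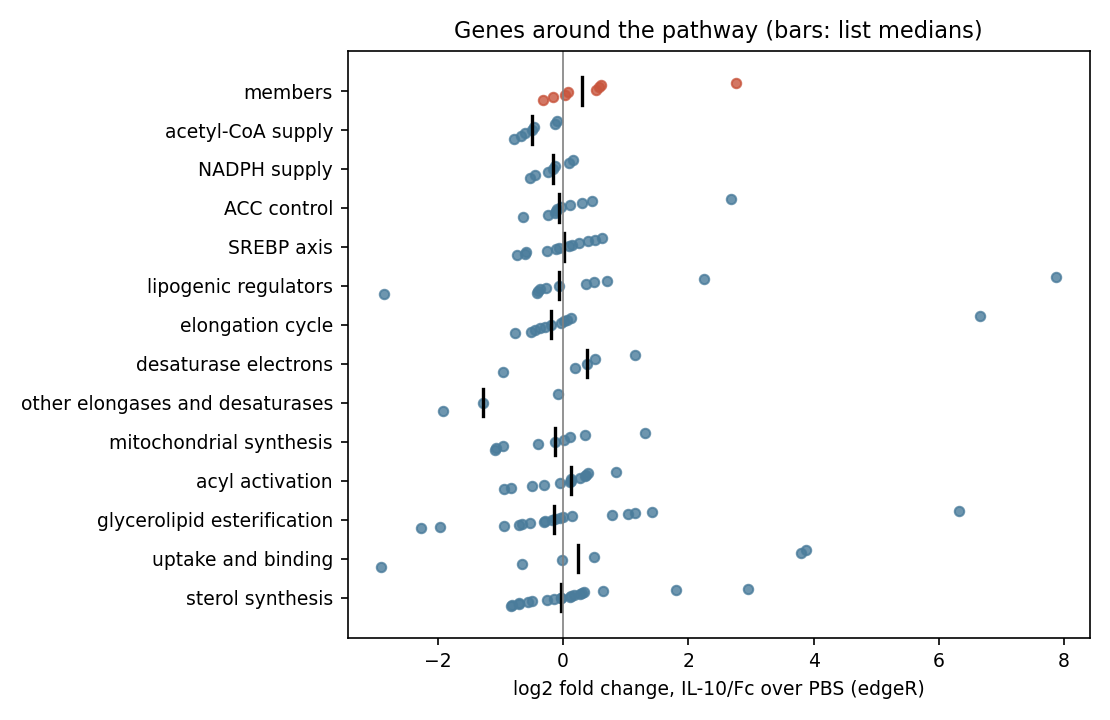
Log2 fold changes of IL-10/Fc over PBS (edgeR) for the 8 members and for the tested genes of 13 lists around them, 1 point per gene, with a bar at each list median. Medians run from -1.29 (3 other elongases and desaturases) to 0.38 (desaturase electron chain); the 3 points above 6 (Pparg, Hacd1 and Dgat2) had at most 1 count over both PBS libraries, so their position depends on the prior count of the fit.

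All 7 tested genes that supply acetyl-CoA had a log2 fold change below 0, with a median of -0.49 and none past edgeR's test. Their summed level was 275.4 and 285.9 CPM in PBS and 198.3 to 241.0 CPM in IL-10/Fc, without overlap. Aco1, the cytosolic aconitase, stood at 9.82 and 10.8 CPM in PBS and at 4.86, 6.91, 6.77 and 5.47 CPM in IL-10/Fc (log2 fold change -0.78, SE 0.27, adjusted p = 0.329 by edgeR). The cytosolic thiolase gene Acat2 stood at 55.5 and 64.9 CPM against 34.4, 38.1, 46.4 and 52.2 CPM. The groups did not overlap for either gene. The citrate carrier gene Slc25a1, which feeds Acly, stood at 28.2 and 51.2 CPM in PBS and at 32.8, 34.1, 28.3 and 20.5 CPM in IL-10/Fc, where the groups overlapped.

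Of 7 tested genes that supply NADPH, the reductant of synthesis and elongation, 2 lay above 0 and 5 below, with a median of -0.16. Tkt, the transketolase of the pentose phosphate pathway, stood at 65.5 and 63.6 CPM in PBS and at 41.6, 40.5, 45.0 and 51.9 CPM in IL-10/Fc, without overlap (log2 fold change -0.53, SE 0.15, adjusted p = 0.260 by edgeR). The authors' deposited table called it lower (adjusted p = 0.0377). Taldo1, the transaldolase of the same pathway, stood at 221.6 and 252.2 CPM against 190.9 to 239.4 CPM, and Pgd, which makes NADPH directly, at 39.8 and 36.5 CPM against 28.6 to 36.4 CPM.

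Of 11 tested genes of the elongation cycle, in which ELOVL6 acts, and of acyl-CoA binding, 4 lay above 0 and 7 below, with a median of -0.19. None passed edgeR's test, and 1 (Hacd3) passed DESeq2's, against 4.88% of all genes. Without overlap 3 were lower, against 11.5% of all genes tested. Hacd3, a dehydratase of the third step, stood at 173.0 and 207.5 CPM in PBS and at 105.4, 117.2, 131.8 and 92.9 CPM in IL-10/Fc, without overlap (log2 fold change -0.77, SE 0.16, adjusted p = 0.196 by edgeR and 0.00349 by DESeq2). Tecr, the reductase of the last step, stood at 392.9 and 351.6 CPM against 305.4, 296.2, 255.2 and 295.0 CPM, also without overlap (log2 fold change -0.37, SE 0.11, adjusted p = 0.275 by edgeR). Acbd6, an acyl-CoA binding protein, was the third, at 56.4 and 40.3 CPM against 35.1, 38.2, 29.4 and 32.3 CPM. Hsd17b12, the reductase of the second step, stood at 72.9 and 73.5 CPM in PBS and at 52.4, 43.1, 66.1 and 77.2 CPM in IL-10/Fc, with IL-10/Fc replicate 4 above both PBS libraries. Hacd1, another dehydratase, was at 0 in both PBS libraries and in IL-10/Fc replicates 1 and 2, and had 30 and 20 counts in replicates 3 and 4.

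The electron carriers of the desaturases differed in direction. Cyb5r3, the main cytochrome b5 reductase, stood at 227.7 and 139.7 CPM in PBS and at 103.5, 112.8, 82.0 and 79.1 CPM in IL-10/Fc (log2 fold change -0.96, SE 0.24, adjusted p = 0.231 by edgeR and 0.00762 by DESeq2). Cyb5r1 stood at 4.99 and 10.6 CPM against 17.6, 21.4, 15.7 and 14.6 CPM, higher in all 4 IL-10/Fc libraries (log2 fold change 1.15, SE 0.36, adjusted p = 0.299 by edgeR). The authors' deposited table called Cyb5r1 higher (adjusted p = 0.0481). The cytochrome gene Cyb5a stood at 245.4 and 192.3 CPM against 335.2, 243.7, 340.6 and 327.2 CPM, where IL-10/Fc replicate 2 lay just below PBS replicate 1. The delta-5 desaturase gene Fads1, which follows Fads2 and Elovl5 in polyunsaturated synthesis, stood at 4.38 and 5.95 CPM in PBS and at 1.81, 1.22, 3.21 and 2.22 CPM in IL-10/Fc, without overlap (log2 fold change -1.29, SE 0.47, adjusted p = 0.353 by edgeR). Elovl4 had 9.67 CPM in PBS replicate 2 against 1.26 CPM in replicate 1, and its log2 fold change of -1.92 lay between -2.75 and 0.19 over the alternatives. The sphingolipid desaturase gene Degs1 stood at 593.7 and 453.3 CPM against 418.4 to 592.2 CPM.

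Transcripts of the SREBP factors themselves were low and overlapped between groups. Srebf1 stood at 2.31 and 5.03 CPM in PBS and at 4.02, 3.10, 2.85 and 4.13 CPM in IL-10/Fc, with a log2 fold change of -0.06 (SE 0.44). Srebf2 stood at 4.55 and 6.83 CPM against 6.97, 8.09, 4.36 and 4.90 CPM. Insig1, which retains SREBP in the endoplasmic reticulum and is itself a target of SREBP, stood at 27.0 and 38.8 CPM in PBS and at 16.5, 22.7, 26.8 and 19.9 CPM in IL-10/Fc (log2 fold change -0.61, SE 0.25, adjusted p = 0.394 by edgeR). These groups did not overlap, but IL-10/Fc replicate 3 lay just below PBS replicate 1. Of the 12 genes on the list drawn up for this axis 6 lay above 0 and 6 below, with a median of 0.02. The list also held Pqlc3, which no source used here ties to SREBP, so it is not read as a gene of the axis. Pqlc3 stood at 118.0 and 165.2 CPM against 238.3, 234.7, 186.4 and 210.2 CPM. It was called higher by DESeq2 (adjusted p = 0.0390) and in the authors' deposited table (adjusted p = 0.0480), but not by edgeR (adjusted p = 0.272). Tmem41b of the same list was lower without overlap, at 39.1 and 27.1 CPM against 16.5, 21.3, 24.5 and 26.0 CPM. Among 19 sterol synthesis genes, the other branch under SREBP control, 9 lay above 0 and 10 below, with a median of -0.03. Sqle, the squalene epoxidase, stood at 23.3 and 27.3 CPM against 14.7, 12.9, 16.1 and 18.1 CPM, and Hmgcs1 at 37.6 and 38.7 CPM against 20.9, 20.7, 32.7 and 19.6 CPM, both without overlap. Neither passed edgeR's test (adjusted p = 0.272 and 0.341), while the authors' deposited table called Sqle lower (adjusted p = 0.0461). Lss, the lanosterol synthase, lay the other way without overlap, at 0.645 and 1.96 CPM against 2.31, 5.51, 5.15 and 5.30 CPM (log2 fold change 1.81, adjusted p = 0.347 by edgeR). In this list of 19 genes 3 were higher and 3 lower without overlap, against 12.1% and 11.5% of all genes tested.

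Of 11 other regulators of lipogenesis, 5 lay above 0 and 6 below, with a median of -0.06. Usf2, an E-box binding factor, was higher without overlap, at 4.04 and 3.24 CPM against 9.58, 4.53, 5.12 and 4.53 CPM, and Mlx, the partner of ChREBP, stood at 17.9 and 30.1 CPM against 37.8, 35.3, 29.3 and 32.8 CPM. Pparg, a nuclear receptor that drives fat storage in adipocytes and is also expressed by macrophages, was at 0 in both PBS libraries and in IL-10/Fc replicate 1, and at 36, 47 and 32 counts in IL-10/Fc replicates 2, 3 and 4. The libraries with Pparg were those with the higher macrophage sums of the IL-10/Fc group, and the part of other cells in its level was not tested. Of 10 tested genes that control acetyl-CoA carboxylase, 4 lay above 0 and 6 below. Among them Hlcs, which attaches the biotin cofactor, stood at 0.238 and 0.359 CPM in PBS and at 0.737, 2.79, 3.39 and 0.855 CPM in IL-10/Fc, low in all libraries. Strada and Cab39, partners of the kinase LKB1, differed in direction, with log2 fold changes of -0.63 and 0.46. In mitochondrial fatty acid synthesis, a separate pathway that supplies lipoic acid, 4 of 9 tested genes lay above 0 and 5 below. Its reductase gene Mecr stood at 41.1 and 28.4 CPM against 8.04, 10.3, 20.2 and 27.7 CPM, without overlap but with IL-10/Fc replicate 4 close to PBS replicate 2. Lipt1 and Acsf3 were at most 1.67 CPM in every library.

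Downstream, the sum over 18 tested genes of glycerolipid esterification was 560.0 and 670.1 CPM in PBS and 925.3 to 1025 CPM in IL-10/Fc. A single gene held most of this difference. Dgat1, which adds the last acyl chain of triglycerides, stood at 217.5 and 338.7 CPM in PBS and at 603.7, 651.8, 594.2 and 611.9 CPM in IL-10/Fc. Its groups did not overlap, with a log2 fold change of 1.15 (SE 0.18). It was called higher by DESeq2 (adjusted p = 1.02e-06) and in the authors' deposited table, and had the smallest p of the 131 genes by edgeR without passing (adjusted p = 0.153). With the filter of 20 CPM in 2 libraries it passed edgeR's test (adjusted p = 0.0412), as it did without PBS replicate 2 (adjusted p = 0.0430). Agpat3, an acyltransferase of phosphatidic acid synthesis, stood at 39.7 and 76.6 CPM against 85.0, 163.1, 116.9 and 111.0 CPM, and Mboat7, which esterifies arachidonate to phosphatidylinositol, at 33.9 and 27.5 CPM against 15.9, 12.9, 19.3 and 15.7 CPM. DESeq2 called Agpat3 higher (adjusted p = 0.0437) and Mboat7 lower (adjusted p = 0.0109), and edgeR called neither (adjusted p = 0.334 and 0.206). Of the 18 genes 6 lay above 0 and 12 below, with a median of -0.15.

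Genes of fatty acid activation and uptake lay on both sides of 0. Of 13 tested genes of acyl activation 8 lay above 0 and 5 below, with a median of 0.13, and the acyl-CoA synthetase gene Acsl4 stood at 36.0 and 38.3 CPM in PBS and at 57.6, 35.9, 53.9 and 48.3 CPM in IL-10/Fc. The thioesterase genes Acot2 and Acot7 had log2 fold changes of -0.31 and 0.27. Of 6 tested genes of uptake and binding 3 lay above 0 and 3 below. The scavenger receptor gene Cd36 stood at 0 and 0.163 CPM in PBS and at 0.134, 3.14, 0.684 and 0.855 CPM in IL-10/Fc, and Fabp4, a fatty acid carrier of adipocytes and macrophages, at 0 and 0.0980 CPM against 0.670, 1.36, 0 and 1.08 CPM. Both were at the level of a few reads in PBS. Lpl, the lipoprotein lipase, stood at 0 and 6.21 CPM in PBS and at 0 to 0.855 CPM in IL-10/Fc.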

How the data were processed

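RNA of 2 PBS and 4 IL-10/Fc libraries, each from 500 sorted cells (purity above 99%), was amplified with Smart-Seq2, which marks neither strand nor single molecules, per the labels' protocols. The authors deposited raw counts per gene. Their series table adds a log2 fold change with SE, the quotient of both (a score), p-values before and after adjustment, and the average normalized count, a signal, per the file headers. Per the submitters' processing notes, the build was GRCm38 (mm10) and the tools included TopHat2 2.1.1, Bowtie2 2.2.9, Trimmomatic, DESeq2, Cuffdiff and Cufflinks 2.2.1, in roles that are not stated. The counting tool is not given in the sources used. PBS columns numbered 2 and 3 in the files belong to titles numbered 1 and 2, which were followed.

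Counts were filtered with filterByExpr, scaled by TMM (factors 0.950 to 1.10) and tested with edgeR 4.0.16 (robust quasi-likelihood, group as the sole term), with Benjamini-Hochberg adjustment at 0.05 over 15477 genes, two-sided. An SE is the log2 fold change over the root of F. Fits used R 4.3.3, and the scripts were tested on simulated data. Alternatives were DESeq2 1.42.0, limma-voom (limma 3.58.1), other scalings and filters, a fit that is not robust, a replicate block, and leaving out single libraries. Correlations used log2(CPM + 0.5). A floor of 3 counts equals 0.0855 to 0.108 CPM. The labels do not say that libraries came from separate mice, so p-values reflect only the spread among these 6 samples, which may be technical. Members and lists were chosen with earlier results of these data known. Named genes are the listed members, the 3 genes with the smallest p of each list and 9 fixed genes; Hacd1, Dgat2, Cdc20, Ifi27 and the single markers were named after their values were seen, and 1 gene that the rule names is not reported here. Exon lengths came from GENCODE M21; gene versions matched for 6 of the 8 members, all but Scd2 and Elovl7.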

Additional observations from a re-analysis of the deposited data

Results flagged for a closer look

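Of 47 measures examined over the 4 IL-10/Fc libraries, 3 had 1 library far from the others, and 2 of these are the same quantity with and without gene length. Chance alone sets 1 library apart in about 1 in 20 groups of this size. The share of Elovl7 in elongase counts was 0.693% in replicate 4 and 0.210% to 0.285% in the others, and per kilobase it was 0.552% against 0.166% to 0.225%. The summed level of the NADPH supply genes was 460.9 CPM in replicate 1 and 539.0 to 546.5 CPM in the others.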

How the results depend on the processing

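The log2 fold change of Elovl6 lay between 2.59 and 2.86 in the 13 alternatives that could be run; the filter of 20 CPM in 2 libraries removed Elovl6, Fasn, Acaca, Scd2 and Elovl7. Acaca, Acly and Fasn kept their direction in every alternative run. With library size only, the direction reversed for Elovl1 (-0.14) and Elovl5 (-0.10). With single libraries left out, Elovl1 lay between -0.030 (without IL-10/Fc replicate 1) and 0.087, Elovl5 between -0.10 (without PBS replicate 2) and 0.28, Scd2 between -0.44 and 0.018 (without IL-10/Fc replicate 2), and Elovl7 between -0.26 (without PBS replicate 2) and 3.09 (without PBS replicate 1). Scaling by library size only moved the median of all genes from -0.01 to -0.18, and both elongases lay above that median; the cause of the other reversals was not tested.

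The count of genes past the threshold, 1 with edgeR, was 741 with the DESeq2 Wald test, 60 with at least 20 CPM in 2 libraries, 0 with library size only, 0 without the robust option and 0 to 16 with single libraries left out: 16 without PBS replicate 2, 1 without IL-10/Fc replicate 1 and 0 without any 1 of the others. With 1 PBS library left, the fit takes its spread from the IL-10/Fc libraries. Limma-voom called 1. At an unadjusted p under 0.05, edgeR had 1970 genes, 2299 with library size only, 1995 without the robust option and 1492 to 2193 with single libraries left out. Members past the threshold of an adjusted p under 0.05 numbered 0, and 1 (Elovl6) with DESeq2. Pathway genes past it numbered 0, and 6 with DESeq2, 1 with at least 20 CPM in 2 libraries, and 0 to 1 with single libraries left out. Of 182 list medians under alternatives 177 moved by less than the spread between replicates.

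With the replicate block, 0 genes passed (1207 at an unadjusted p under 0.05) and the log2 fold change of Elovl6 was 2.72. Same-numbered libraries correlated at 0.0602 and 0.0113 in their deviations from the group means, and the labels give no meaning to the number.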
